A study of Mus musculus with 12 samples.

Results

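The 10 genes described here are growth receptor genes of the mouse colon and 1 enzyme gene close to them, taken by gene name from the count table: the fibroblast growth factor (FGF) receptors Fgfr1, Fgfr2, Fgfr3 and Fgfr4, the epidermal growth factor (EGF) receptor family genes Egfr, Erbb2 and Erbb3, the lysophosphatidic acid (LPA) receptors Lpar1 and Lpar6, and Enpp2, which encodes autotaxin. Autotaxin is not a receptor but the secreted enzyme that makes LPA. All 10 were found among the 54532 genes of the table, and all 10 passed the filter on low counts, which 16904 genes passed.

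RNA-Seq was run on colon sections from male wild-type (WT) C57BL/6J mice that were 5 weeks old. There were 4 groups of 3 libraries. The control mice were untreated. The other groups all drank dextran sulfate sodium (DSS), which damages the colon lining and gives an acute colitis, either alone (model group), with rhynchophylline (Rhy), an alkaloid of the herb Uncaria, or with dexamethasone (DXM, 4 mg/kg), a glucocorticoid. Rhy was given at 2, 4 or 8 mg/kg in the study, and which of these doses the sequenced mice received is not given in the sources used here. The sections hold the mixed cells of the colon wall, so a lower share of a cell type and less RNA per cell cannot be told apart. The labels do not say that each library came from its own mouse, and p-values measure the spread between these libraries.

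FGF receptors and EGF receptors are tyrosine kinases of the cell surface that pass growth signals through the RAS and PI3K-Akt pathways. ERBB2 binds no known ligand and ERBB3 has little kinase activity of its own, so they signal mainly as a pair, with some of the neuregulins as the ligands of ERBB3. LPA is a signalling lipid read by G-protein-coupled receptors, LPAR1 and LPAR6 among them. In the gut these pathways are known for crypt growth, for repair after injury and for signals between stroma and epithelium.

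The libraries held 14346478 to 17749716 counts. Model 1 and model 2 resembled each other more than any other libraries did (common dispersion 0.00201 against 0.0592 to 0.339 in the other 65 pairs), but differed by more than sampling noise (median variance 1.9 times the Poisson value over 15996 genes), and were kept as 2 libraries. That excess does not show that they came from separate mice. All 3 comparisons use the model group. Its spread, the p-values and the counts of groups that do not overlap treat this pair as 2 independent values. Control 3, model 3 and Rhy 1 held almost no Hoxb13, a homeobox gene of the distal colon (0 to 1.49 CPM, counts scaled to library size, against 72.0 to 317 in the other 9). The summed CPM of 13 epithelial markers was 34590 to 45140 in control, 26800 to 37550 in model, 31120 to 37670 in Rhy and 21320 to 35640 in DXM libraries. That of 10 fibroblast markers was 683 to 1309, 637 to 718, 463 to 1910 and 1094 to 2259, and no marker of either list was at 0 in all libraries.

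Per transcript length, the EGF receptor pair stood far above the rest. In control colon the deposited FPKM (fragments scaled by transcript length and library depth) of Erbb3 was 72.7 ± 31.4 (SD, n = 3) and that of Erbb2 66.2 ± 12.2, with overlapping ranges. Lpar1 followed at 12.2 ± 0.707, below every Erbb2 value and above every Fgfr2 value. Fgfr2 stood at 6.27 ± 3.37, and the other 6 genes had mean FPKM of 3.55 (Fgfr4), 3.25 (Lpar6), 2.83 (Fgfr1), 2.71 (Fgfr3), 2.71 (Egfr) and 2.08 (Enpp2). From Fgfr2 down to Enpp2, each gene's control range overlapped that of its neighbour in the order, so these neighbours cannot be ranked.

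On GRCm38, the build called mm10, the genes lie on 9 chromosomes, with Egfr and Erbb2 sharing chromosome 11. Fgfr1 (ENSMUSG00000031565) is annotated at chr8:25513654-25575718, Fgfr2 (ENSMUSG00000030849) at chr7:130162451-133123350, Fgfr3 (ENSMUSG00000054252) at chr5:33721674-33737068 and Fgfr4 (ENSMUSG00000005320) at chr13:55152640-55168759. Egfr (ENSMUSG00000020122) lies at chr11:16752203-16918158, Erbb2 (ENSMUSG00000062312) at chr11:98412470-98437716 and Erbb3 (ENSMUSG00000018166) at chr10:128567523-128589652. Lpar1 (ENSMUSG00000038668) lies at chr4:58435255-58553898, Lpar6 (ENSMUSG00000033446) at chr14:73237895-73243294 and Enpp2 (ENSMUSG00000022425) at chr15:54838901-54952892. Lpar6 sits inside Rb1 on the opposite strand and shares 408 exon bases with it. Exon bases are also shared on the opposite strand by Fgfr3 (998, with G630022F23Rik), Enpp2 (345, with Gm26684), Fgfr1 (164, with Gm16159) and Erbb2 (9, with Mien1), and on the same strand by Fgfr2 (314, with Ctbp2). The strand setting of the counting is not given in the sources used here, so reads from these shared bases may belong to either gene.

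The study follows the aryl hydrocarbon receptor (AhR), a ligand-activated transcription factor that binds the xenobiotic response element, and promoters of 3 members are printed to show where that element's core letters stand. The core searched was GCGTG on either strand (CACGC on the other), in the 250 bases before each RefSeq gene start on GRCm38.p6. Of the members, 7 had a window there and none was given for Fgfr1, Erbb3 and Enpp2. The core stood in 4 of their 10 windows, against 28.2% of all 32851 windows. One Fgfr3 window held 4 cores, a number reached or passed by 0.846% of all windows. Each line gives the gene strand 5′ to 3′ outside the gene's annotated exons, with core letters in capitals, and Erbb2 and Fgfr2 are shown because their levels are among those described most closely below.
Fgfr3 chr5:33721474-33721673 (+): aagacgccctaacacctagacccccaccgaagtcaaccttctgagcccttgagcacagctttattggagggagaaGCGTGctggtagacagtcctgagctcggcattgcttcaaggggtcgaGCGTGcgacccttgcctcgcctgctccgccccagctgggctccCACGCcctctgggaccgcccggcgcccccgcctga
Erbb2 chr11:98412234-98412469 (+): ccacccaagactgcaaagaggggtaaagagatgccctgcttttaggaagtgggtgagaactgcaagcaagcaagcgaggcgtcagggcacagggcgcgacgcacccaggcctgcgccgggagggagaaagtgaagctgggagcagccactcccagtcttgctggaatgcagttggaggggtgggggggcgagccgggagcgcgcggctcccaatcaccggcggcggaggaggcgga
Fgfr2 chr7:130266809-130267058 (-): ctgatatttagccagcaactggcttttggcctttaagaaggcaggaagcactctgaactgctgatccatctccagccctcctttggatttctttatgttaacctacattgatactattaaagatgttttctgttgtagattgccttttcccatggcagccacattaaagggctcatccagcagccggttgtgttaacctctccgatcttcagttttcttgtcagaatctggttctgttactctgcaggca
The Fgfr3 stretch holds 3 cores, and the Erbb2 and Fgfr2 stretches hold none. The Fgfr2 window lies inside the Fgfr2 interval given above, far from its outer start. The bases that follow this window were found in 0 annotated Fgfr2 transcripts, so its letters describe that RefSeq start only. A match is a description of letters and not a bound site.

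No member passed an adjusted p of 0.05 in any of the 3 comparisons. The test was edgeR's quasi-likelihood test on all 16904 genes with Benjamini-Hochberg adjustment, which called 0 genes in each comparison. At an unadjusted p under 0.05 it gave 1626 genes between model and control, 628 between Rhy and model and 1300 between DXM and model. DESeq2 on all libraries called 46, 5 and 51 genes at an adjusted p under 0.05. Every log2 fold change below is therefore a measured difference with its standard error (SE), and not a called one.

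Between model and control, 5 of the 10 genes had an unadjusted p under 0.05, 4 lower and 1 higher, against 9.62% of all genes tested (4.51% lower and 5.11% higher). This count changed with the libraries used. It was 1 with model 1 and model 2 summed, 1 without model 1 or without model 2, 2 without control 1 or without control 2, and 3 without model 3. For 3 members, all of them lower, every model library lay below every control library, against 17% of all genes that did not overlap in either direction and 6.61% that were lower in this way. That number was 5 without control 3. The smallest exact p with 3 against 3 libraries is 0.1. The members' median log2 fold change was -0.24, beside 0.01 over all genes tested.

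**Figure D1:**
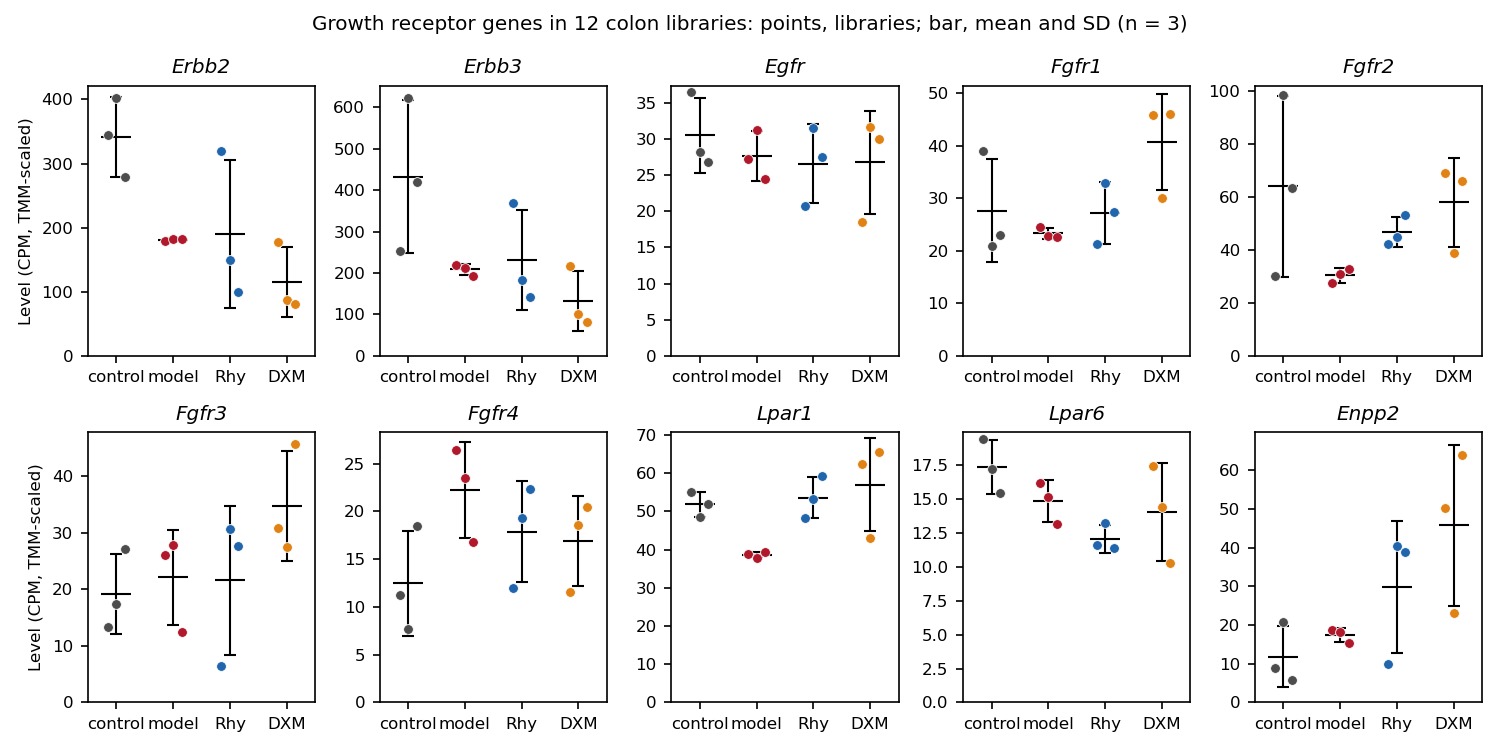
Level of each gene (CPM, linear axis from 0) in control, model, Rhy and DXM colon, with a point for each library and bars for the mean and SD (n = 3). The model libraries of Erbb2 (179 to 183), Erbb3 (194 to 220) and Lpar1 (37.9 to 39.3) all lie below the controls, and Rhy 1 is the high Rhy point for Erbb2 (319) and Erbb3 (369).

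Erbb2 and Erbb3, the most abundant members, were lower in every model library than in every control library. Erbb2 held 344, 403 and 279 CPM in control 1, 2 and 3 and 179, 183 and 182 CPM in model 1, 2 and 3. Erbb3 held 254, 623 and 421 CPM in the controls and 220, 213 and 194 CPM in the model libraries. The controls were spread widely, the model libraries closely. The log2 fold change was -0.91 (SE 0.40) for Erbb2 (edgeR, unadjusted p = 0.0428, adjusted p = 0.513) and -1.05 (SE 0.44) for Erbb3 (edgeR, unadjusted p = 0.035, adjusted p = 0.495). DESeq2 fitted to these 6 libraries alone gave Erbb2 -0.96 with an adjusted p of 0.0165. All 13 epithelial markers had a negative fold change in the same comparison, with a median of -0.35 and 3 at an unadjusted p under 0.05, and their part in the Erbb2 and Erbb3 difference was not tested.

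The Rhy libraries were spread widely for both genes. In Rhy 1, 2 and 3, Erbb2 stood at 319, 150 and 99.6 CPM. Erbb3 stood at 369, 182 and 143 CPM in the same libraries. Rhy 1 lay within the control range for both genes, while Rhy 2 and Rhy 3 lay below every model library. The log2 fold change of Rhy against model was 0.06 (SE 0.40) for Erbb2 and 0.15 (SE 0.44) for Erbb3, with an adjusted p of 1 for both (edgeR). Without Rhy 1 these values were -0.54 and -0.36, and Rhy 1 is one of the libraries with almost no Hoxb13. The sign for Erbb2 also turned with Rhy 1 kept, at -0.102 with the replicate number as a block and -0.104 with Hoxb13 as a covariate.

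The DXM group had the lowest mean of both genes, with DXM 1 above Rhy 2 and Rhy 3. Erbb2 held 178, 87.4 and 80.4 CPM in DXM 1, 2 and 3, and every one was below every model library. For DXM 1 this was nearly a tie, at 177.5 CPM against 179.3 CPM in model 1. In the deposited FPKM, DXM 1 (33.55) lay above model 1 (33.3), so there the groups overlapped. Erbb3 held 216, 102 and 82.2 CPM, where DXM 1 lay among the model libraries and the others below them. Against model the log2 fold change was -0.66 (SE 0.40) for Erbb2 (edgeR, adjusted p = 0.688) and -0.65 (SE 0.44) for Erbb3 (edgeR, adjusted p = 0.721). DXM 2 and DXM 3 also had the lowest epithelial marker sums of the 12 libraries, 23000 and 21320 CPM, and the part of that in these values was not tested. Abundant genes weigh most in such a sum, and Car1 alone ran from 509.4 to 11100 CPM in DXM libraries. Of the 13 markers, 10 had a negative and 3 a positive fold change in DXM against model (median -0.225). Of the 9 DSS-treated libraries, 8 lay below the lowest control for Erbb2 and 8 for Erbb3, the exception being Rhy 1 in each.

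Erbb2 and Erbb3 took similar shares of their family, most closely in the DSS-treated libraries. As a share of the summed FPKM of Egfr, Erbb2, Erbb3 and Erbb4, Erbb2 made up 42.1 to 59.2% in control and 46.9 to 50.5% in model libraries. It made up 42.3 to 49.2% in Rhy and 45.9 to 48.6% in DXM libraries. Erbb3 made up 37.9 to 56.5% in control, 46.4 to 49.8% in model, 49.0 to 52.4% in Rhy and 43.0 to 50.1% in DXM libraries. Erbb4, the remaining family gene, was 0 in 9 of the 12 libraries and at most 0.0320% in the others. Across the 12 libraries the log2 CPM of Erbb2 and Erbb3 had a Pearson r of 0.939 and a Spearman rho of 0.916, given as a description since the libraries share groups and cell makeup.

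Egfr, the founding receptor of the family, varied little in level. It held 36.4, 28.2 and 26.8 CPM in control, 27.1, 31.3 and 24.5 in model, 20.7, 31.5 and 27.4 in Rhy and 18.5, 31.7 and 30.0 in DXM libraries. The groups overlapped in each comparison, with log2 fold changes of -0.14 (SE 0.24), -0.06 (SE 0.24) and -0.05 (SE 0.24). Its share of the family's summed FPKM was 1.36 to 2.88% in control and 3.12 to 3.77% in model libraries, which did not overlap (exact permutation test, two-sided, p = 0.1, the smallest possible). In DXM libraries the Egfr share ran from 2.28 to 8.34%, and the highest values, in DXM 2 and DXM 3, belong to the libraries with the lowest Erbb2 and Erbb3.

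**Figure D2:**
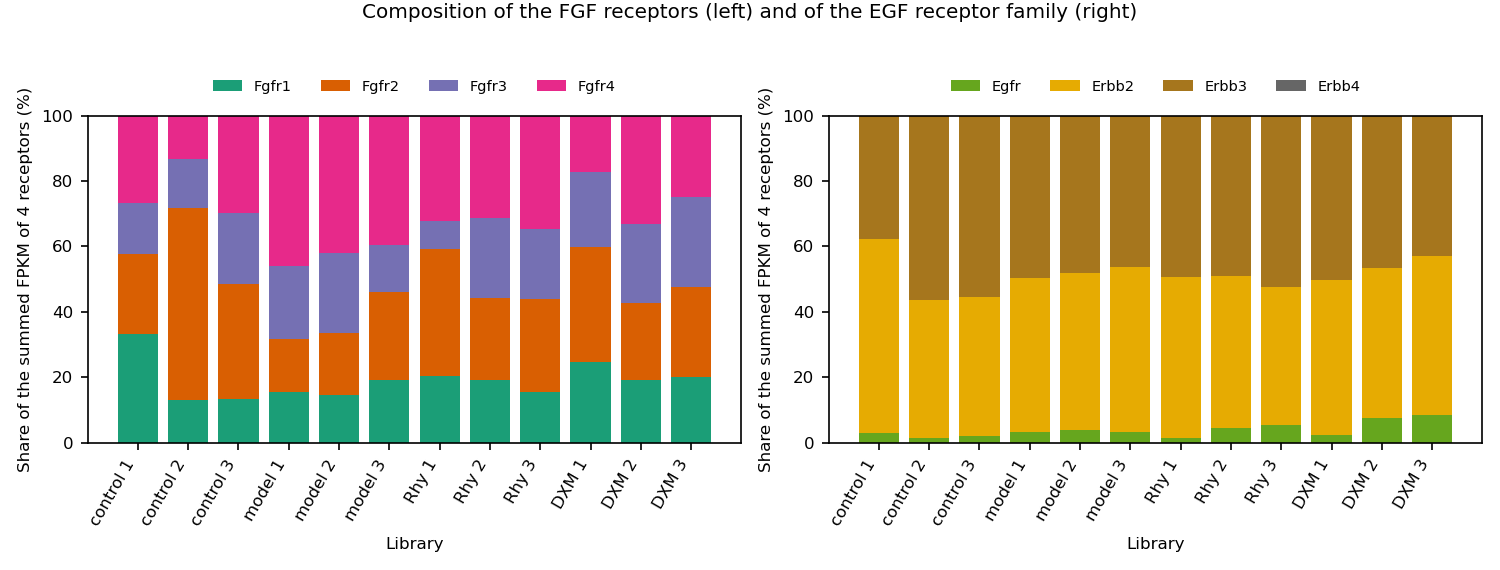
Share of the summed FPKM (percent) taken by each FGF receptor and by each EGF receptor family gene in the 12 libraries. Fgfr4 takes 39.5 to 46.0% of the FGF receptor sum in model libraries and at most 34.8% in any other, and Erbb2 takes 42.1 to 59.2% of the EGF receptor family sum.

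Among the FGF receptors, Fgfr2 and Fgfr4 differed between model and control in opposite directions. Fgfr2, whose epithelial splice form answers FGF7 and FGF10 from the stroma, held 30.3, 98.5 and 63.5 CPM in control and 27.5, 31.1 and 33.0 CPM in model libraries. Control 1 lay among the model libraries, so the groups overlapped. It differed by -1.07 on the log2 scale (SE 0.35, edgeR unadjusted p = 0.0107, adjusted p = 0.479). Gene counts do not separate the splice forms. Fgfr4, a receptor of endocrine FGF15 and of several other FGFs, held 11.2, 7.72 and 18.4 CPM in control and 26.5, 23.5 and 16.7 CPM in model libraries, with control 3 and model 3, both with almost no Hoxb13, inside the other group's range. Its log2 fold change was 0.83 (SE 0.35, edgeR unadjusted p = 0.0361, adjusted p = 0.499). All 9 crypt base and cycling markers also had a positive fold change there, with a median of 0.33, none at an unadjusted p under 0.05, and summed CPM of 180 to 352 in control and 311 to 378 in model libraries, and their part was not tested.

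As a share of the FGF receptors, Fgfr4 set the model libraries apart from all others. Of the summed FPKM of the 4 FGF receptors, Fgfr4 held 26.6, 13.4 and 29.8% in control and 46.0, 41.9 and 39.5% in model libraries, a difference of 19.2 percentage points. It held 32.1, 31.3 and 34.8% in Rhy and 17.3, 33.0 and 24.9% in DXM libraries, differences from model of -9.72 and -17.4 percentage points on average. Every model library was above every library of the other groups. The share also depends on the other FGF receptors, and mean Fgfr2 was lowest in model libraries (30.53 CPM, against 64.06 in control, 46.85 in Rhy and 58.11 in DXM). In level, Fgfr4 did not set the model libraries apart. Model 3 (16.7 CPM) lay below libraries of each other group, among them control 3 (18.4), Rhy 3 (22.3) and DXM 3 (20.5). The exact two-sided permutation p is 0.1 for each contrast, the smallest possible, and 5 of the 21 share comparisons computed did not overlap. The Rhy and DXM contrasts share the model libraries, so they are not separate evidence.

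In Rhy colon, Fgfr2 was higher than in model colon in every library, and so was Lpar1. These 2 of 10 members did not overlap between the groups, against 11.5% of all genes (5.51% higher and 6.02% lower). Fgfr2 and Lpar1 were both picked out by the study on these samples, so their direction is not independent evidence. One member, Lpar1, had an unadjusted p under 0.05 and was higher, against 3.72% of all genes (1.74% higher and 1.98% lower). None had one without model 1, without model 2 or without Rhy 3, and 2 had one without control 1 or without Rhy 1. Without Rhy 1 the number of members that did not overlap was 6, and without model 3 it was 4, with fewer libraries left to overlap. The median log2 fold change of the members was 0.11, beside -0.01 over all genes.

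Fgfr2 stood at 42.3, 45.1 and 53.1 CPM in Rhy 1, 2 and 3, all above the highest model value of 33.0. Against model this was a log2 fold change of 0.62 (SE 0.35, edgeR unadjusted p = 0.104, adjusted p = 1). In DXM libraries it stood at 69.3, 38.8 and 66.2 CPM, again above every model library, with a log2 fold change of 0.93 (SE 0.35, edgeR unadjusted p = 0.022, adjusted p = 0.637). No Rhy or DXM library passed the control maximum of 98.5 CPM, and all of them lay within the wide control range.

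Lpar1, the receptor through which LPA acts on fibroblasts and other stromal cells, had the smallest standard error of the members. It held 55.1, 48.5 and 51.8 CPM in control and 38.8, 37.9 and 39.3 CPM in model libraries, and the groups did not overlap. It held 48.4, 53.4 and 59.2 CPM in Rhy libraries and 62.4, 43.0 and 65.4 CPM in DXM libraries. Every Rhy and every DXM library was above every model library. The log2 fold change was -0.42 (SE 0.18, unadjusted p = 0.0345, adjusted p = 0.495) for model against control, 0.47 (SE 0.18, unadjusted p = 0.0206, adjusted p = 1) for Rhy against model and 0.56 (SE 0.18, unadjusted p = 0.00842, adjusted p = 0.622) for DXM against model, all from edgeR. The 10 fibroblast markers mostly had fold changes of the same sign, with sums that overlapped between Rhy (463 to 1910 CPM) and model libraries (637 to 718 CPM). All 10 had a negative fold change in the model (median -0.59, none at an unadjusted p under 0.05), 9 of 10 a positive one under Rhy (median 0.73, 4 at an unadjusted p under 0.05) and 10 of 10 under DXM (median 1.14, 9 at an unadjusted p under 0.05), and their part in the Lpar1 values was not tested. Rhy 1 had the lowest fibroblast sum of the 12 libraries (463 CPM) and 48.4 CPM of Lpar1. The summed CPM of 10 smooth muscle markers did not overlap between Rhy (6285 to 7050) and model libraries (4112 to 5305). Of these markers, 9 had a positive fold change under Rhy (median 0.337, 1 at an unadjusted p under 0.05). In model against control 9 were positive as well (median 0.0352), where Lpar1 was lower. The part of this list in the Lpar1 values was not tested either.

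**Figure D3:**
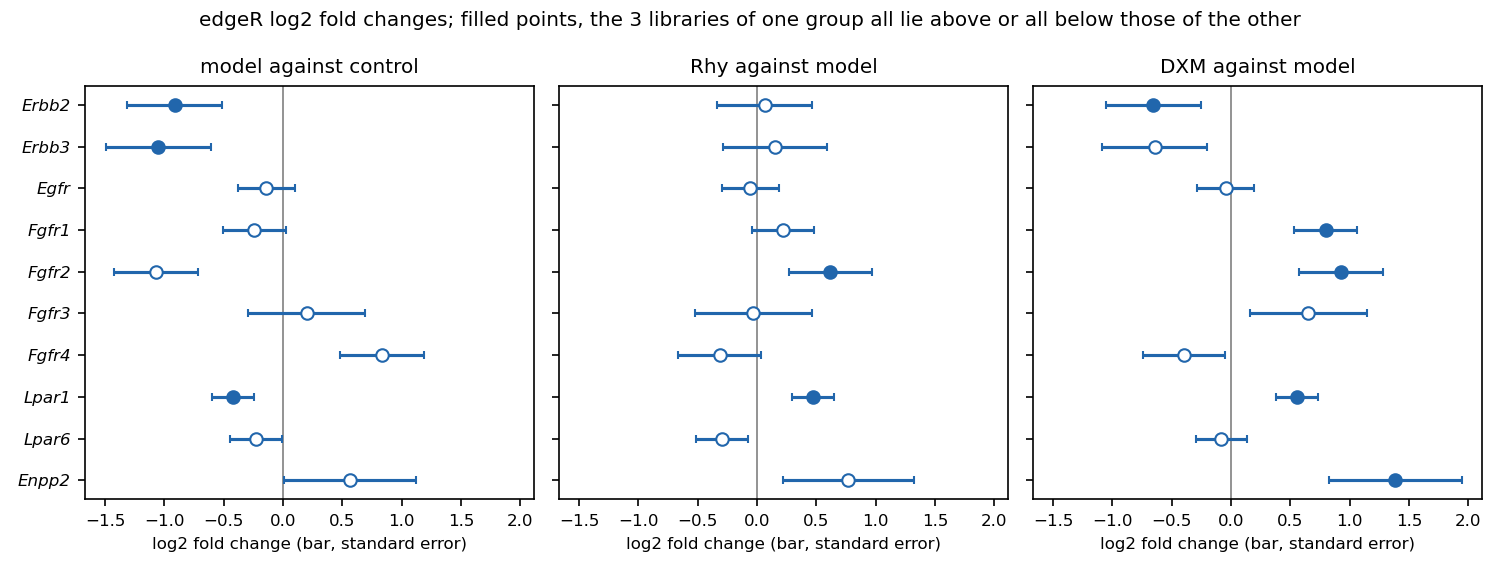
Log2 fold change (edgeR, bars are standard errors) of the 10 genes for model against control, Rhy against model and DXM against model, with filled points where the libraries of the groups do not overlap. No gene passes an adjusted p of 0.05, and Lpar1 (-0.42, 0.47 and 0.56) has the smallest standard error, 0.18.

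DXM against model gave 4 members with an unadjusted p under 0.05, all higher, against 7.69% of all genes (4.89% higher). For 5 members the groups did not overlap in CPM, against 22.6% of all genes. Of these, 4 were higher (10.4% of all genes) and 1, Erbb2, was lower (12.2%), in FPKM with overlap. The 4 higher genes were Fgfr1, Fgfr2, Lpar1 and Enpp2. With model 1 and model 2 summed the count at an unadjusted p under 0.05 was 2, and without DXM 3 or without model 1 it was also 2. DESeq2 fitted to the 6 DXM and model libraries alone gave adjusted p-values of 0.0257 for Fgfr1, 0.0202 for Fgfr2 and 0.00503 for Enpp2. The members' median log2 fold change was 0.26, beside -0.01 over all genes.

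Enpp2 had the largest of these differences. It held 18.9, 18.3 and 15.5 CPM in model and 50.3, 23.1 and 64.1 CPM in DXM libraries, with a log2 fold change of 1.39 (SE 0.56, edgeR unadjusted p = 0.0292, adjusted p = 0.637). In Rhy libraries it held 10.02, 40.5 and 39.0 CPM, where Rhy 1 was below the model and the others above it, and the log2 fold change was 0.77 (SE 0.55, edgeR adjusted p = 1). Control libraries held 8.84, 20.9 and 5.82 CPM. Control and model overlapped, and 5 of the 9 DSS-treated libraries lay above the highest control.

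Fgfr1, the FGF receptor best known from mesenchymal cells, held 39.0, 21.0 and 23.1 CPM in control and 24.6, 22.9 and 22.6 CPM in model libraries. It held 21.2, 32.9 and 27.4 CPM in Rhy and 45.8, 30.1 and 46.1 CPM in DXM libraries, and all DXM libraries lay above all model libraries. The log2 fold change of DXM against model was 0.80 (SE 0.26, edgeR unadjusted p = 0.0109, adjusted p = 0.622). The differences of -0.24 (SE 0.26) for model against control and 0.22 (SE 0.26) for Rhy against model came with overlapping groups. Its share of the FGF receptor sum was 19.2 to 24.5% in DXM and 14.6 to 19.2% in model libraries, which touched at 19.2% (exact two-sided permutation p = 0.1). Fibroblast markers (10 of 10) and smooth muscle markers (10 of 10, median log2 fold change 0.68, 5 at an unadjusted p under 0.05) were higher in DXM libraries too. The summed smooth muscle CPM was 4112 to 5305 in model and 5707 to 10020 in DXM libraries. Macrophage markers (7 of 7, median 1.21, 4 at an unadjusted p under 0.05) and endothelial markers (8 of 8, median 0.83, 1 so called) were also higher. So were the 3 of 6 neutrophil markers that passed the filter (median 2.89, 1 so called), but this median rests on few reads. The 6 neutrophil markers summed to 0.477 to 1.4 CPM in model and 1.58 to 12.3 CPM in DXM libraries. Summed macrophage CPM was 85.9 to 92.9 in model and 108 to 284 in DXM libraries, and summed endothelial CPM 120 to 139 and 136 to 293. The part of these lists in the Fgfr1, Fgfr2, Lpar1 and Enpp2 values was not tested.

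**Figure D4:**
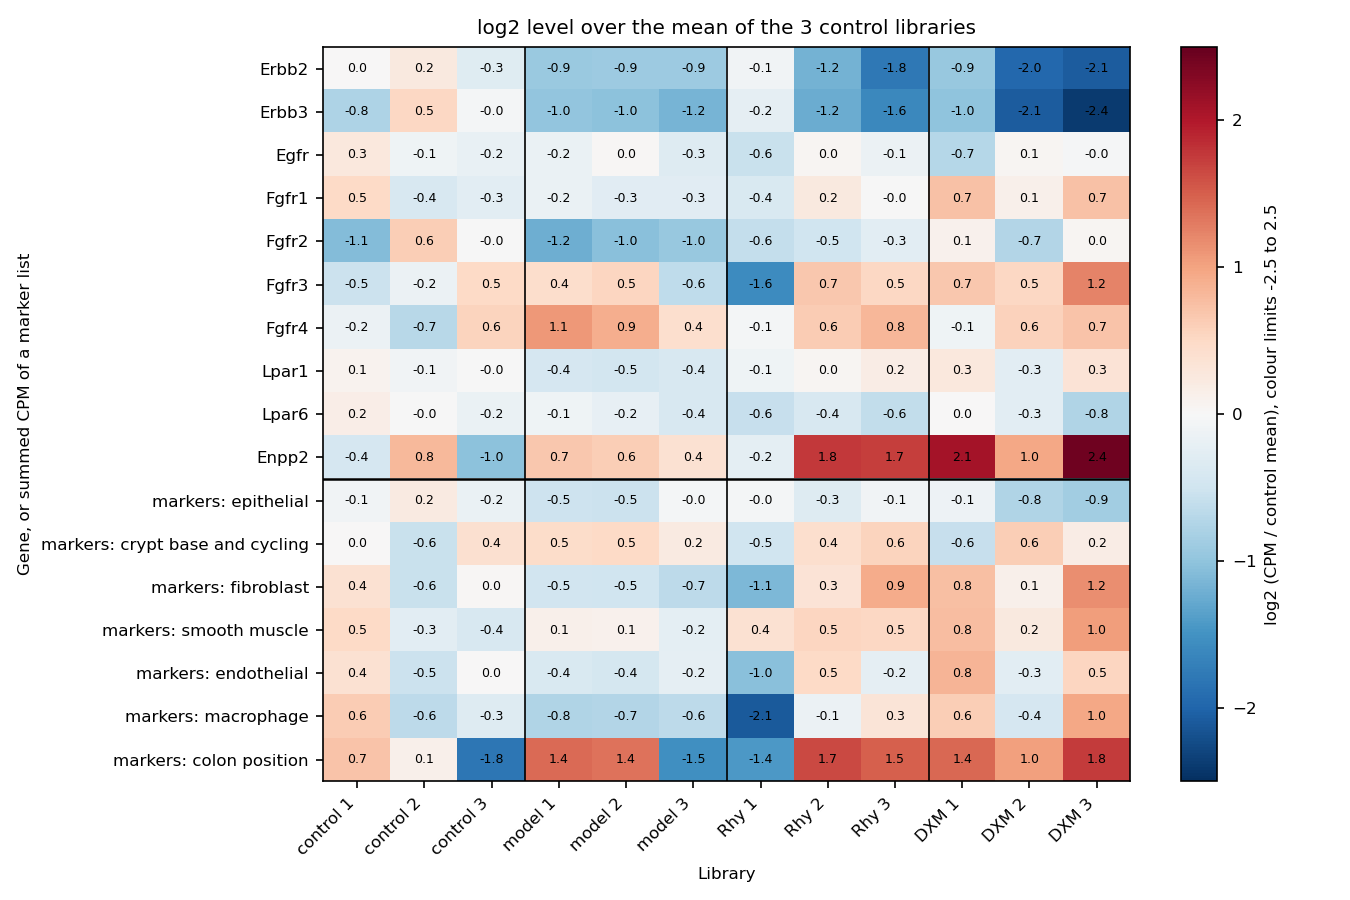
Heat map of the log2 level of each gene, and of each summed marker list, over the mean of the 3 control libraries, with the 12 libraries in columns, the genes and lists in rows and each value printed. DXM 2 and DXM 3 are lowest for Erbb2 and Erbb3 and for the epithelial list (23000 and 21320 CPM), and DXM 3 is highest for Enpp2 and for the fibroblast list (64.1 and 2259 CPM).

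For Fgfr3 and Lpar6, the groups overlapped in each of the 3 comparisons. Fgfr3, a receptor of crypt and Paneth cell development, held 13.3, 17.3 and 27.1 CPM in control and 26.0, 27.9 and 12.5 CPM in model libraries. It held 6.51, 30.6 and 27.6 CPM in Rhy and 30.9, 27.5 and 45.7 CPM in DXM libraries. The lowest value within model and within Rhy, 12.5 in model 3 and 6.51 in Rhy 1, came from libraries with almost no Hoxb13, whereas control 3, the third such library, had the highest Fgfr3 of the controls. Log2 fold changes were 0.20 (SE 0.50), -0.03 (SE 0.50) and 0.65 (SE 0.50) for model against control, Rhy against model and DXM against model. Lpar6, an LPA receptor known from hair growth, held 15.5 to 19.5 CPM in control, 13.2 to 16.2 in model, 11.4 to 13.3 in Rhy and 10.3 to 17.4 in DXM libraries. Its log2 fold changes were -0.23 (SE 0.22), -0.30 (SE 0.22) and -0.08 (SE 0.22), and of the 9 DSS-treated libraries 7 lay below the lowest control, all 3 Rhy libraries among them. Each model library also lay below the control library of the same number, though the labels do not pair them. With the replicate number as a block the log2 fold change was -0.23 (edgeR unadjusted p = 0.263, adjusted p = 0.719). For Fgfr4, the log2 fold change was -0.31 (SE 0.35) in Rhy and -0.40 (SE 0.35) in DXM against model, both with overlapping groups.

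The ligands and partners of these receptors were read from 6 lists of 87 genes, of which 69 passed the filter. No listed gene passed an adjusted p of 0.05 (edgeR). Between model and control, 4 of 69 had an unadjusted p under 0.05, beside the 9.62% of all genes. Fgf9 (-1.08, SE 0.37), an FGF of mesenchyme and epithelium, Cbl (-0.58, SE 0.20), a ubiquitin ligase that ends EGF receptor signalling, and the LPA receptor gene Lpar3 (-1.99, SE 0.57) were lower in log2 terms. Fgf13 (0.90, SE 0.30), an intracellular FGF homologue, was higher. For Fgf9, Cbl, Lpar3 and Fgf13, every model library lay outside the control range. They were picked by p-values from these same libraries, so this is not separate evidence. The count was 11 without control 1, 8 without control 3, and 7 without model 3, DXM 1 or DXM 2. Lpar3 is a low gene at 0.655 to 0.717 CPM in model and 1.42 to 5.35 CPM in control libraries.

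Under Rhy, 2 of the 69 genes had an unadjusted p under 0.05 against model, beside 3.72% of all genes. Rhbdf2, which encodes iRhom2, an escort of the protease that sheds EGF ligands, held 19.7, 17.5 and 23.2 CPM in model and 11.8, 11.5 and 16.9 CPM in Rhy libraries, with a log2 fold change of -0.59 (SE 0.27). The neuregulin gene Nrg3 (-2.47, SE 0.94), whose product is not a known ligand of ERBB3, was at most 1.07 CPM in all these libraries and at 0 in Rhy 3. Both genes were lower in every Rhy library than in every model library, which is not separate from the p-values that picked them. The count was 1 without control 2, model 1, Rhy 3 or DXM 2.

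Under DXM, 6 of the 69 genes had an unadjusted p under 0.05 against model, beside 7.69% of all genes. Among the ligands, Fgf10, the stromal ligand of Fgfr2, held 2.76, 1.70 and 2.56 CPM in model and 5.14, 4.29 and 8.86 CPM in DXM libraries (log2 fold change 1.38, SE 0.55). Ereg, the EGF receptor ligand epiregulin, held 11.3, 12.9 and 11.1 CPM in model and 20.1, 23.7 and 64.6 CPM in DXM libraries (log2 fold change 1.62, SE 0.66). Fgf18 was higher too (2.80, SE 0.80), from 0.179 to 0.364 CPM in model to 0.434 to 3.90 CPM in DXM libraries. It is a low gene, above 0.434 CPM only in Rhy 3 (1.075), DXM 1 (1.097) and DXM 3 (3.90). It passed the filter on low counts through these libraries, so its place in the count of 6 is not separate from its DXM values. The FGF-binding protein gene Fgfbp1 (-1.41, SE 0.62), Rhbdf2 (-0.61, SE 0.26) and the LPA receptor gene Lpar5 (-1.19, SE 0.53) were lower in log2 terms. All 6 had no overlap between DXM and model libraries, which is not separate from the p-values that picked them. The count was 3 without model 1 or model 3 and 1 without DXM 3.

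By list, 3 of the 11 EGF ligands had a positive fold change in model against control (median -0.52), 6 in Rhy against model (median 0.02) and 9 in DXM against model (median 0.24). These contrasts share the model libraries, and the difference between them was not tested. For the 9 genes tested of the FGF ligand list, which includes intracellular homologues such as Fgf13, 5 were positive in each of the 3 comparisons. Their medians were 0.13, 0.17 and 0.20. Of the 8 FGF co-receptors and decoys, 5, 2 and 2 were positive (medians 0.16, -0.26 and -0.16). Of the 12 EGF receptor partners, inhibitors and shedding genes, 5, 3 and 5 were positive (medians -0.20, -0.07 and -0.07), of the 8 LPA receptors and enzymes 1, 5 and 5 (medians -0.23, 0.10 and 0.18), and of the 21 adaptors, feedback genes and targets 6, 7 and 11 (medians -0.10, -0.05 and 0.03). Over all genes tested the medians were 0.01, -0.01 and -0.01.

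No feedback gene of the lists passed an adjusted p of 0.05, and a few had groups that did not overlap. Of the 69 listed genes, 3 were higher and 8 lower without overlap in model against control (10.4% and 6.61% of all genes). The counts were 4 and 5 in Rhy against model (5.51% and 6.02%) and 9 and 11 in DXM against model (10.4% and 12.2%). Among the 21 adaptors, feedback genes and targets, 1 was higher and 5 lower (Frs2, Grb2, Gab2, Shc1 and Sos1) in this way in DXM against model. In Rhy against model 1 was higher and 2 lower (Frs2 and Shc1). In model against control 0 were higher and 2 lower (Gab1 and Spred2). Errfi1, an inhibitor of EGF receptor kinases, was lower in every model than in every control library (log2 fold change -0.57, SE 0.28) and higher in every Rhy than in every model library (0.31, SE 0.28). Spred2, an inhibitor of RAS signalling, was lower in every model than in every control library (-0.29, SE 0.17), Dusp4 was higher in every Rhy than in every model library (0.51, SE 0.62) and Spry1 higher in every DXM than in every model library (0.30, SE 0.28). Apart from Errfi1 and Grb2, the genes named so far in this paragraph were picked after their values were seen. Dusp6, a phosphatase gene induced by ERK, had log2 fold changes of 0.09 (SE 0.33), 0.27 (SE 0.33) and 0.16 (SE 0.33) for model against control, Rhy against model and DXM against model. Spry2, a Sprouty inhibitor, had -0.05 (SE 0.27), -0.07 (SE 0.27) and 0.31 (SE 0.26). In these comparisons the groups of Dusp6 and Spry2 overlapped. For the abundant ligand Areg (amphiregulin) the values were -0.05 (SE 0.41), 0.19 (SE 0.41) and 0.67 (SE 0.41), and every DXM library (38.4 to 62.1 CPM) lay above every model library (26.5 to 32.3 CPM).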

How the data were processed

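Colon RNA was sequenced on a HiSeq X10 in 12 libraries, 3 for each of 4 groups, which were taken from the labels. The submitters' processing notes name HISAT2 2.0.5, featureCounts 1.5.0-p3, DESeq2 1.16.1 and the mouse build mm10. The notes do not say how DESeq2 was applied, and the strand setting is not given in the sources used here. The authors deposited raw read counts per gene and FPKM, fragments per length and depth, in separate columns of the whole-series tables. The deposited FPKM were recovered from the counts and gene lengths with 1 factor per library for 100% of 262985 values above 0, within 0.1%. No column lay outside the sample list (0 columns).

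Counts were tested with edgeR 4.0.16 in R 4.3.3 (quasi-likelihood F-test, two-sided, TMM scaling, filterByExpr with a minimum count of 10, all 12 libraries in 1 fit, Benjamini-Hochberg adjustment over 16904 genes, threshold 0.05). CPM were TMM-scaled, and log2 CPM used a prior count of 2. Levels of different genes were compared by the deposited FPKM only. Shares within receptor families were compared by exact permutation tests over libraries. Alternatives were RLE and upper-quartile scaling, a test of all genes with a count, a fit of the compared groups alone, DESeq2 1.42.0, limma 3.58.1 on log2(FPKM + 1) and log2(FPKM + 0.1), the replicate number as a block, model 1 and model 2 summed, Hoxb13 as a covariate and each library left out. Leaving out the 3 libraries with almost no Hoxb13 was added after seeing the data.

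Same-numbered model and control libraries deviated together from their group means (correlations of 0.21, 0.104 and 0.363, all over the set minimum of 0.1). The lowest barely passed that minimum. The highest joined a control and a model library that both held almost no Hoxb13. The labels pair no libraries, so these values do not establish that the numbers pair them. The main tests did not use the numbers, and the replicate block was an alternative only. The correlations of same-numbered Rhy and model libraries (-0.231, 0.142 and -0.198) and DXM and model libraries (-0.0146, -0.0892 and -0.139) were not all over that minimum.

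The genes and the gene lists were chosen with earlier results of these data known. All 10 members were named, then every listed pathway gene with an unadjusted p under 0.05, then the 3 of each list with the highest mean FPKM, of which a few are printed, and the 3 genes most like each member by Pearson r. The fit was tested on simulated counts for model against control: of 16904 genes simulated, 16585 passed the filter, 5 of 100 genes changed 2-fold and 54 of 100 changed 4-fold were recovered, and 3 unchanged genes were called. Promoter windows came from RefSeq (GRCm38.p6). Protein sequences were not used here.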

Additional observations from a re-analysis of the deposited data

How the results depend on the processing

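With 3 libraries a group, the test recovered few genes changed 2-fold in simulation at depths like those of the libraries. Scaling moved the median log2 fold change of all genes by less than 0.1. Genes with an adjusted p under 0.05, 0 in each comparison, numbered 1 between model and control with any count and with only the groups compared, 46 with DESeq2 on all libraries and 167 on only those compared. Rhy against model gave 5 and 44 with DESeq2 and 2 with limma on log2(FPKM + 0.1). DXM against model gave 2 with only the groups compared, 51 and 590 with DESeq2, 2 with limma on log2(FPKM + 0.1) and 2 without the low-Hoxb13 libraries. Leaving out 1 library gave 0 to 1, 0 to 1 and 0 to 0. The cause was not tested.

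DESeq2 on only the groups compared put Erbb2 past the threshold for model against control (-0.96) and Fgfr1 (0.82), Fgfr2 (0.94) and Enpp2 (1.40) for DXM against model. No other setting did so for a member. Members with an unadjusted p under 0.05 numbered 1, 0 and 2 in the 3 comparisons with model 1 and model 2 summed, in place of 5, 1 and 4, and in Rhy against model 2 with only the groups compared, 2 with DESeq2 on them and 2 without the low-Hoxb13 libraries. Leaving out 1 library gave 1 to 5, 0 to 2 and 2 to 4. Members that did not overlap numbered 6 and 9 in model against control and Rhy against model without the low-Hoxb13 libraries, where fewer libraries were left to overlap, and 3 to 5, 2 to 6 and 5 to 7 with 1 library left out. In DXM against model they numbered 4 to 7 over the other settings.

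The pathway genes with an unadjusted p under 0.05, 4, 2 and 6 of 69, were 8 between model and control with any count, 8 with only the groups compared, 9 and 9 with DESeq2 and 8 without the low-Hoxb13 libraries. Rhy against model gave 1 with RLE or upper-quartile scaling, any count, DESeq2 on all libraries, both limma fits, the replicate block and the summed model libraries, 6 with DESeq2 on only the groups compared and 7 without the low-Hoxb13 libraries. DXM against model gave 13 with only the groups compared, 15 with DESeq2 on them, 3 with each limma fit, 3 with the replicate block and 2 with the summed model libraries. Leaving out 1 library gave 3 to 11, 1 to 3 and 1 to 7.

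Signs turned only for members whose log2 fold change was smaller than its standard error. For Rhy against model, Erbb2 was -0.0732 and -0.0796 in the limma fits, -0.10 with the replicate block, -0.10 with the Hoxb13 covariate and -0.51 without the low-Hoxb13 libraries, and Erbb3 was -0.0147 with the covariate and -0.38 without those libraries. Fgfr3 was 0.13 with the model libraries summed and 0.14 without the low-Hoxb13 libraries, where Egfr was 0.0421. Fgfr3 was -0.13 with the covariate for model against control, and Egfr was 0.0271 with upper-quartile scaling for DXM against model. With 1 library left out, model against control ran from -0.41 to 0.0844 for Fgfr1, -0.00855 to 0.49 for Fgfr3 and -0.25 to 0.00709 for Egfr. Rhy against model ran from -0.36 to 0.40 for Fgfr3, -0.20 to 0.0935 for Egfr, -0.54 to 0.37 for Erbb2 and -0.36 to 0.40 for Erbb3. DXM against model ran from -0.19 to 0.16 for Egfr and -0.26 to 0.10 for Lpar6. The replicate block changed no call of a member.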

Other observations

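Across the 12 libraries, the genes whose log2 CPM followed each member most closely were named by Pearson r, as a description over libraries that share groups, cell makeup and colon position. For Erbb2 these were Mkrn1 (0.983), Foxo3 (0.981) and Dyrk1b (0.978), and for Erbb3 Unc5b (0.986), Eps8l2 (0.984) and Src (0.983). For Fgfr1 they were Rcn3 (0.978), Tns2 (0.976) and Camk1 (0.971), and for Enpp2 Chrdl1 (0.955), Rspo3 (0.931), which encodes a Wnt-enhancing R-spondin made by stromal cells, and Nenf (0.93). For Fgfr4 they were Rad51ap1 (0.947), a DNA repair gene, Phf19 (0.947) and Cbx5 (0.945), which encodes the heterochromatin protein HP1 alpha. For Fgfr3 they were Plk2 (0.964), Hpn (0.942) and Ttll4 (0.933), for Lpar1 Cdh13 (0.925), Pcolce2 (0.924) and Lmcd1 (0.917), and for Fgfr2 Zfp942 (0.906), Sema3g (0.893) and Agap1 (0.88). For Egfr they were Cd14 (0.902), B4galt7 (0.883) and Wfdc18 (0.88), and the closest gene to Lpar6 was Trmt1l (0.915).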
